A study of Mus musculus with 6 samples.

Results

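The 9 genes FDX1, LIAS, LIPT1, DLD, DLAT, PDHA1, PDHB, DLST and GCSH encode enzymes and carrier proteins of protein lipoylation, and they are linked to cuproptosis, a form of cell death caused by copper. They were taken by symbol, and all 9 were among the 17144 genes listed in the count tables. The measurements are RNA-seq libraries of mRNA from cells labelled SaOS2, a long-established line from a human osteosarcoma, 3 titled C and 3 titled D. The series title and design name a treatment of these cells with DDTC(I), a compound given only by that name. The letters C and D are not explained in the labels, and neither is a dose, a time or a vehicle. Differences are therefore D minus C, and no group is called treated.

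Lipoylation is the attachment of lipoic acid to a lysine of a few mitochondrial enzymes. An octanoyl chain made by mitochondrial fatty acid synthesis is placed on the H protein GCSH, the iron-sulfur enzyme LIAS inserts sulfur to make lipoyl, and LIPT1 transfers lipoyl to the 2-oxoacid dehydrogenases. FDX1 is a small iron-sulfur electron carrier that is needed for lipoylation. Lipoylated DLAT is known to bind copper and to aggregate when copper is carried into mitochondria, and loss of FDX1 or LIAS is known to protect cells from that death. Sequences of these human genes and their coordinates were not used here.

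The libraries held 18446443 to 20602771 counts each. The 9 genes had 62 to 3427 counts per library, far above a floor of 3 counts. Levels are given as CPM, which are counts scaled to a common total with TMM factors, unless FPKM, the deposited value per length, is named. The summed CPM of marker sets are an exception, scaled to the library total without TMM factors. With library size only, all tested genes had a median log2 change of −0.17. A marker went against the labelled line: ALPL, the alkaline phosphatase of osteoblasts, had 8 to 15 counts per library. Of the 12 osteoblast markers checked, 9 had more than 3 counts in at least 1 library, and the markers SP7, BGLAP and IBSP had at most 2 in any. The osteoblast markers summed to 2130 to 2498 CPM in C and 700.5 to 792.1 in D. Of the 9 tested, 2 were called higher and 5 lower, against 26.8% and 27.7% of all tested genes. Most of the osteoblast sum was the matrix gene SPARC, with 37528 to 40842 counts in C and 11924 to 12916 in D. Of 8 hematopoietic and macrophage markers, 7 had more than 3 counts in at least 1 library, and their summed CPM was 522.1 to 546.8 in C and 462 to 501.5 in D. Nearly all of that sum was CD68, a lysosomal gene that is not specific to macrophages (8516 to 10520 counts). CSF1R, on the same list, had 292 to 368 counts per library, while PTPRC had at most 8, TYROBP at most 2, CD14 at most 15 and SPI1 at most 21. Of the 5 tested markers of this list, 2 were called higher and 0 lower, against 26.8% and 27.7% of all tested genes. Epithelial markers summed to 88.9 to 98.1 CPM in C and 121.8 to 147 in D, and endothelial markers to 21.4 to 26.3 and 13.7 to 14.8. Most of the epithelial sum was KRT8 (717 to 1007 counts) and KRT18 (701 to 1508), while EPCAM had at most 7, KRT19 at most 11 and GRHL2 at most 6. ESRP1 had 25 to 30 counts in C and 359 to 446 in D, CDH1 8 to 11 and 20 to 44, and CLDN4 65 to 72 and 10 to 22. Of the 5 tested epithelial markers, 3 were called higher and 1 lower, against the same shares of all tested genes. Most of the endothelial sum was PECAM1 (185 to 405 counts), and KDR had at most 3. CDH5 had 81 to 101 counts in C and 9 to 11 in D. Of the 4 tested endothelial markers, 0 were called higher and 2 lower, against 26.8% and 27.7% of all tested genes. The part of these markers in the results below was not tested. In bulk RNA, fewer cells of a type and less RNA per cell cannot be told apart.

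The lipoylation genes moved little between the groups. DLAT and DLST, both lipoyl-carrying core subunits of 2-oxoacid dehydrogenases, were higher in D, and GCSH, the lipoyl carrier of glycine breakdown, was lower. FDX1, LIAS, LIPT1, DLD, PDHA1 and PDHB did not pass the test. A gene was called at an adjusted p under 0.05 in edgeR's quasi-likelihood test, with Benjamini-Hochberg adjustment over 12682 genes. All 9 passed the filter on low counts, and 2 of the 9 were called higher, against 26.8% of the 12682 genes, and 1 of the 9 lower, against 27.7%. In either direction 3 of the 9 were called, against 54.4% of all tested genes, and whether these shares differ was not tested. None of the 9 changed by 2-fold, while 18.5% of tested genes were called with a change of that size. The log2 fold changes of the 9 ran from −0.57 to 0.34, with a median of 0.24 against −0.02 over all tested genes.

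**Figure D1:**
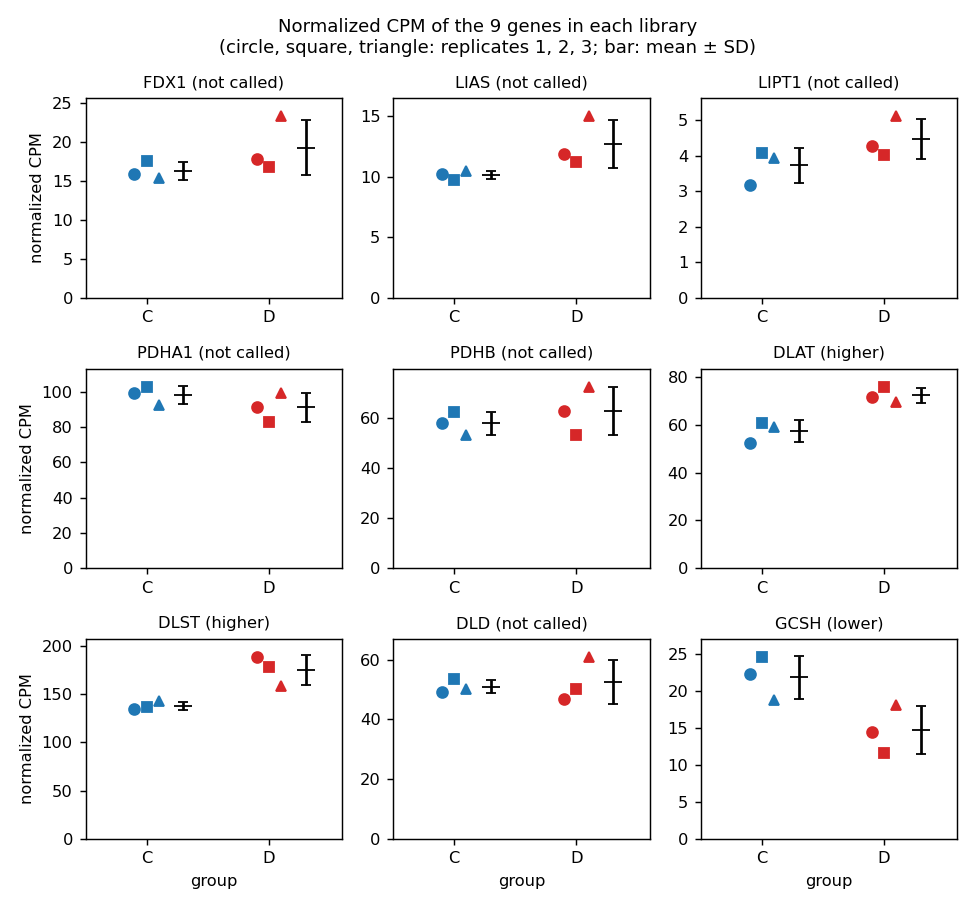
Normalized CPM (vertical axis, from 0) of each of the 9 genes in the C libraries (blue) and the D libraries (red), with symbols for replicates 1, 2 and 3 and black bars for mean ± SD (n = 3). The D libraries lie wholly above C for LIAS, DLAT and DLST (3 genes, against 30.6% of tested genes), wholly below it for GCSH (1 gene, against 32.1%), and overlap it for the other 5 genes. This order is that of CPM with TMM factors, and in FPKM the groups overlap for LIAS, DLAT and DLST.

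FDX1, the ferredoxin at the head of the pathway, was read at 15.9, 17.6 and 15.4 CPM in C replicates 1, 2 and 3. In D replicates 1, 2 and 3 it was read at 17.8, 16.8 and 23.3. D replicate 3 stood above every other library, while the other two D libraries lay within or near the C range, so the groups overlapped. The log2 fold change of FDX1 was 0.24 ± 0.15 (SE; 95% interval −0.10 to 0.58; adjusted p = 0.20, edgeR), and it was 0.09 without D replicate 3.

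LIAS, the lipoyl synthase, had 10.2, 9.75 and 10.5 CPM in C and 11.9, 11.2 and 15.0 in D replicates 1, 2 and 3. In CPM, all 3 D libraries lay above all 3 C libraries, as they did for 30.6% of tested genes. In FPKM the groups overlapped, with D replicate 2 at 2.88 and C replicate 3 at 2.93. The log2 fold change of LIAS, 0.33 ± 0.14 (95% interval 0.01 to 0.64), missed the threshold (adjusted p = 0.079, edgeR). It passed without D replicate 2 (0.44, adjusted p = 0.022) and after each library's trend with gene length was removed (0.36, adjusted p = 0.035). It was smaller without D replicate 3 (0.20, adjusted p = 0.20), with library size only (0.17) and with log2(FPKM + 1) (0.12).

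LIPT1, the lipoyltransferase, was the least abundant of the 9, with 62, 88 and 83 counts in C and 76, 77 and 90 in D. In CPM it had 3.18, 4.07 and 3.93 in the C libraries and 4.29, 4.01 and 5.11 in the D libraries. D replicate 2 fell inside the C range, and the log2 fold change of 0.26 ± 0.17 (95% interval −0.13 to 0.65) did not pass (adjusted p = 0.23, edgeR). It was 0.15 without C replicate 1 and 0.16 without D replicate 3. FDX1, LIAS and LIPT1 were each highest in D replicate 3.

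DLAT is the acetyltransferase core of the pyruvate dehydrogenase complex, which feeds pyruvate carbon into the TCA cycle as acetyl-CoA. It had 52.3, 60.8 and 59.0 CPM in C and 71.7, 75.9 and 69.5 in D. The lowest D library exceeded the highest C library, and the mean rose from 57.4 ± 4.49 to 72.4 ± 3.25 CPM. The log2 fold change was 0.33 ± 0.10 (95% interval 0.10 to 0.57; adjusted p = 0.025, edgeR), a 1.26-fold rise. DLAT was no longer called when C replicate 1 (log2 fold change 0.27), C replicate 2 (0.38), C replicate 3 (0.35) or D replicate 1 (0.34) was left out.

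DLST is the succinyltransferase core of the 2-oxoglutarate dehydrogenase complex of the TCA cycle. It was read at 135, 137 and 143 CPM in C and 188, 178 and 158 in D. The D libraries again lay wholly above C, with D replicate 3 nearest to it. The mean rose from 138 ± 4.09 to 175 ± 15.2 CPM, and the log2 fold change was 0.34 ± 0.10 (95% interval 0.11 to 0.57; adjusted p = 0.021, edgeR). DLST was no longer called when C replicate 1 (0.32), C replicate 2 (0.33), C replicate 3 (0.36) or D replicate 1 (0.29) was left out.

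The rises of DLAT and DLST also depended on the scaling. With library size only, in place of TMM, all tested genes had a median log2 change of −0.17. DLAT was then at 0.18 and DLST at 0.19, above that median but not called (adjusted p = 0.18 and 0.17, edgeR). In FPKM, which is scaled by library size, the groups overlapped for both genes. D replicate 3 was below C replicate 2 for DLAT (16.86 against 16.95) and below C replicate 3 for DLST (39.1 against 40.7). With TMM factors and without D replicate 3, both were called, at 0.37 and 0.42.

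PDHA1 and PDHB encode the alpha and beta chains of the decarboxylase of the pyruvate dehydrogenase complex. PDHA1, which carries the serines that the inhibitory kinases phosphorylate, had 99.1, 103 and 92.3 CPM in C and 91.1, 82.9 and 99.1 in D. The ranges overlapped, and the log2 fold change was −0.11 ± 0.11 (95% interval −0.35 to 0.14; adjusted p = 0.42, edgeR). It was −0.01 without D replicate 2. With library size only PDHA1 was called lower (−0.26, adjusted p = 0.0497, edgeR). The 3 fits on log2 FPKM, which also scale by library size, called PDHA1 lower as well (−0.25 to −0.26, adjusted p from 0.034 to 0.037, limma-trend). PDHB had 58.0, 62.2 and 53.1 CPM in C and 62.7, 53.2 and 72.3 in D. One D library was just above the C minimum and another above every C library, and the log2 fold change of 0.12 ± 0.13 (95% interval −0.19 to 0.42) did not pass (adjusted p = 0.48, edgeR). It was 0.02 without D replicate 3 and 0.26 without D replicate 2 (adjusted p = 0.081). The sign of PDHB turned with library size only (−0.04) and with length trends removed (−0.03).

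DLD, the dihydrolipoamide dehydrogenase that reoxidizes the lipoyl arm in all of these complexes, had 49.2, 53.6 and 50.0 CPM in C and 46.8, 50.1 and 60.8 in D. The D libraries lay below, within and above the C range. The log2 fold change was 0.04 ± 0.12 (95% interval −0.24 to 0.33; adjusted p = 0.78, edgeR), and it was −0.06 without D replicate 3 and −0.11 with library size only.

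GCSH, the H protein that carries the lipoyl arm of the glycine cleavage system, showed the largest change of the 9. It had 22.2, 24.5 and 18.7 CPM in C and 14.4, 11.7 and 18.1 in D, so D replicate 3 lay just under C replicate 3. The mean fell from 21.8 ± 2.93 to 14.7 ± 3.21 CPM. The log2 fold change was −0.57 ± 0.18 (95% interval −0.98 to −0.17; adjusted p = 0.024, edgeR), which puts D at 67.3% of the C level. The call held with library size only (−0.73). It did not hold when C replicate 1 (−0.56), C replicate 2 (−0.48), D replicate 1 (−0.56) or D replicate 2 (−0.39) was left out. GCSH, like FDX1, DLST and PDHA1, has pseudogene or paralog copies that can share its reads, and how such reads were counted is not given in the sources used here.

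**Figure D2:**
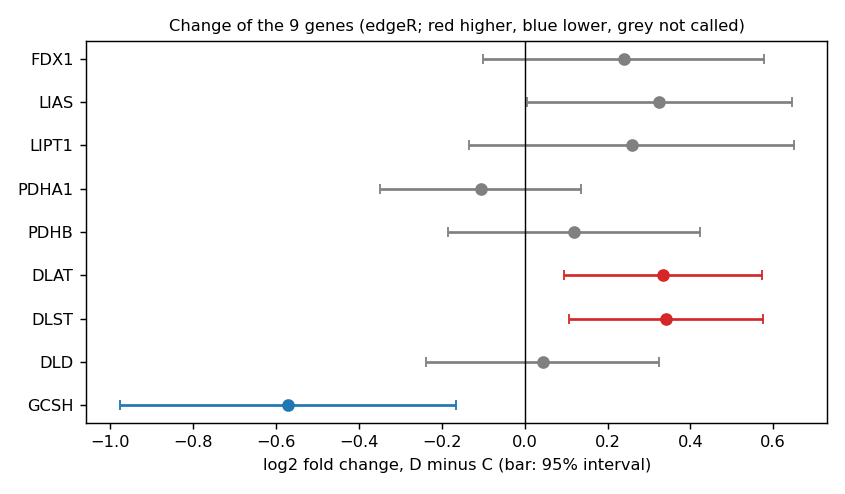
Log2 fold change of D minus C (horizontal axis) for each of the 9 genes, with 95% intervals from the edgeR fit over all genes. The intervals of DLAT, DLST, LIAS and GCSH exclude 0, and LIAS is grey because its adjusted p is 0.079.

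The libraries of D differed among themselves along gene length, and D replicate 3 was the highest D library for 7 of the 9 genes and the lowest for 2, DLAT and DLST. Set against log2 length, log2 CPM relative to the C mean had a slope of −0.132 in D replicate 1, 0.026 in D replicate 2 and −0.327 in D replicate 3. In D replicate 3, short transcripts were therefore read relatively higher. GCSH (1669 bp), PDHB (1507 bp) and LIPT1 (1931 bp) were the short genes of the group, and the other 6 had 3144 to 3781 bp. Among the 1101 tested genes within 1.2-fold of the length of GCSH, the median log2 fold change was 0.16 and 19.9% were called lower. GCSH thus went the other way from the median of its length class, and with length trends removed its log2 fold change was −0.71 (adjusted p = 4.0e-04, edgeR). For the length classes of DLAT and DLST the medians were −0.03 and −0.03, and with length trends removed these genes were at 0.37 and 0.37.

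**Figure D3:**
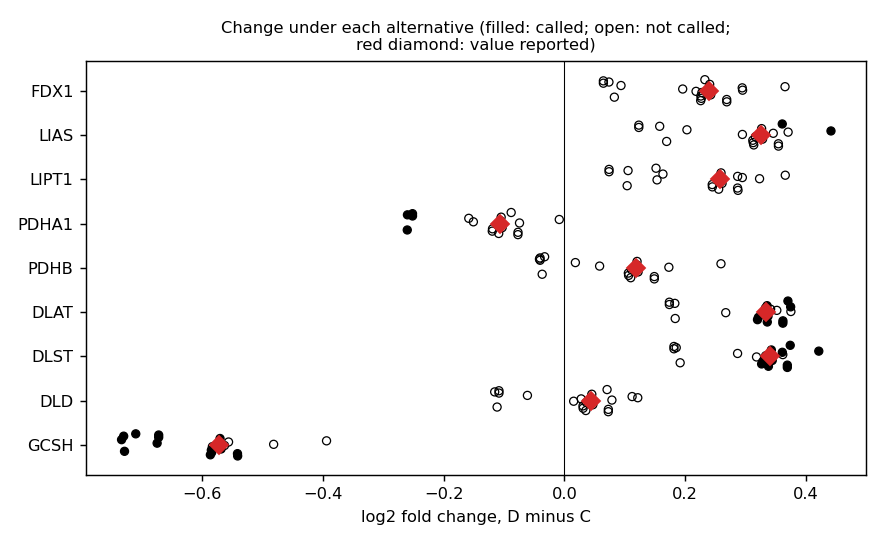
Log2 fold change of D minus C (horizontal axis) of each gene in the fit reported (red diamond) and under each of 20 alternatives (circles, filled where called). GCSH is below 0 and DLAT and DLST above 0 under all 20, and they were called in 14, 10 and 10 of them, while the circles of DLD and PDHB lie on both sides of 0.

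On the scale per length, the complex subunits were more abundant than the lipoylation enzymes in both groups. In C the order by mean FPKM was PDHB (40.4 ± 3.05), DLST (39.3 ± 1.29), PDHA1 (29.7 ± 1.48), DLAT (16.0 ± 1.25), DLD (14.9 ± 0.634), GCSH (13.8 ± 1.80), FDX1 (5.47 ± 0.367), LIAS (2.83 ± 0.112) and LIPT1 (2.03 ± 0.262). The library ranges of PDHB and DLST overlapped, as did those of DLAT and DLD and of DLD and GCSH, and the other neighbours were apart. In D, DLST (44.9 ± 5.12) and PDHB (39.4 ± 4.83) exchanged places with overlapping ranges. PDHA1 (24.8 ± 1.51), DLAT (18.2 ± 1.34), DLD (13.8 ± 1.49) and GCSH (8.32 ± 1.56) followed in D with no overlap between neighbours. FDX1 (5.79 ± 0.857), LIAS (3.18 ± 0.393) and LIPT1 (2.19 ± 0.208) had the last places in D.

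Ratios of genes within a library do not depend on the scaling of that library, but they can follow its trend with gene length. For 8 pairs, 6 that share a complex or take part in lipoylation and 2 of lipoyl carriers from different complexes, log2 ratios of FPKM were compared between the groups by an exact 2-sided permutation test, which cannot go below p = 0.1 with 3 against 3. DLAT relative to PDHA1 was −1.04, −0.87 and −0.76 in C and −0.46, −0.25 and −0.63 in D. The groups did not overlap, and the difference of 0.44 had an exact p of 0.1 (0.27 adjusted over the 8 pairs). PDHA1 relative to PDHB was −0.43, −0.48 and −0.41 in C and −0.66, −0.56 and −0.75 in D, a difference of −0.22 with no overlap (exact p = 0.1, adjusted 0.27). PDHA1 and PDHB have 3472 and 1507 bp, and with length trends removed their log2 fold changes were −0.09 and −0.03. What part of the difference follows gene length was not tested.

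GCSH relative to DLST was −1.45, −1.33 and −1.78 in C and −2.56, −2.79 and −1.98 in D, a difference of −0.92. That these groups do not overlap follows from the opposite order of the groups in the CPM of GCSH and of DLST, so it adds nothing to those values. DLST relative to DLAT was 1.29 ± 0.095 in C and 1.30 ± 0.107 in D (SD, n = 3), a difference of 0.00 (exact p = 1). For DLAT relative to PDHB (0.23), DLD relative to DLAT (−0.30), LIAS relative to FDX1 (0.09) and LIPT1 relative to LIAS (−0.05) the groups overlapped, with exact p from 0.2 to 0.7. No pair could pass a threshold of 0.05 in this design.

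**Figure D4:**
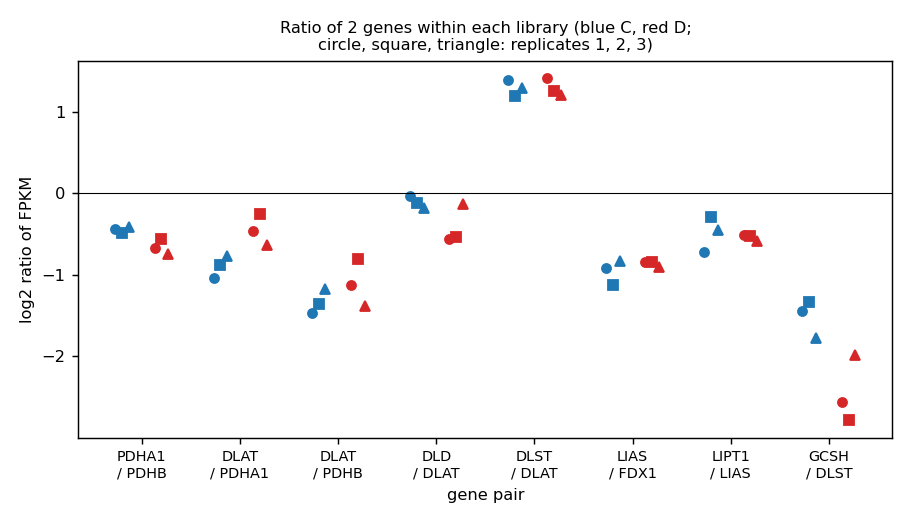
Log2 ratio of the FPKM of 2 genes (vertical axis) within each library for the 8 pairs, C in blue and D in red, with symbols for replicates 1, 2 and 3. PDHA1 over PDHB, DLAT over PDHA1 and GCSH over DLST are the 3 pairs in which C and D do not overlap.

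Within the lipoyl complexes, calls differed between subunits, and of all tested genes 54.4% were called in either direction. Apart from the pairs above, whether subunits of a complex differ in their change was not tested. Of the 5 pyruvate dehydrogenase genes, DLAT was higher, PDHX lower and PDHA1, PDHB and DLD not called. PDHX, which anchors DLD to the core, had 59.0, 58.7 and 56.3 CPM in C and 43.2, 43.1 and 49.1 in D, so it fell in all 3 D libraries (−0.36 ± 0.10; adjusted p = 0.016, edgeR). Its call was lost without C replicate 1 (−0.36), C replicate 2 (−0.36) or D replicate 1 (−0.33). Of the 4 genes of the 2-oxoglutarate complex, only DLST was called. OGDH, its decarboxylase, was at −0.21 ± 0.14 (95% interval −0.52 to 0.10), and at −0.08 without D replicate 3 and −0.14 without C replicate 3. MRPS36, an adaptor of the complex, was at −0.07 ± 0.22 (95% interval −0.57 to 0.43).

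The glycine cleavage system had 2 of 4 genes lower, GCSH and AMT, against 27.7% of all tested genes. AMT, its aminomethyltransferase, was scarce, with 1.38 ± 0.219 CPM in C and 0.642 ± 0.0883 in D (−1.10 ± 0.25; adjusted p = 0.0063, edgeR). GLDC, its decarboxylase, had 4.72 ± 0.446 and 4.70 ± 0.649 CPM (log2 fold change −0.01, 95% interval −0.38 to 0.37). DHTKD1, which works with DLST and DLD in lysine breakdown, fell from 34.6 ± 3.41 to 14.0 ± 3.24 CPM (−1.30 ± 0.18; adjusted p = 4.4e-04, edgeR). It went the other way from DLST. BCKDHA, a decarboxylase chain of the branched-chain complex, rose from 23.1 ± 1.95 to 34.3 ± 4.90 CPM (0.57 ± 0.14; adjusted p = 0.0074, edgeR). Of the 9 tested subunits outside the 9 lipoylation genes, 1 was higher and 3 lower (median −0.28), against 26.8% and 27.7% of tested genes.

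Genes that supply octanoyl chains, or the S-adenosylmethionine that LIAS cleaves, went both ways. Of 8 tested, 4 were higher and 1 lower (median 0.45), against 26.8% and 27.7% of all tested genes. Whether the shares of this list or of the lists below differ from those was not tested. SLC25A26, the mitochondrial carrier of S-adenosylmethionine, rose from 15.8 ± 1.91 to 32.3 ± 6.10 CPM (1.03 ± 0.16; adjusted p = 9.7e-04, edgeR). CBR4, a reductase of mitochondrial fatty acid synthesis, fell from 28.0 ± 1.30 to 14.9 ± 0.818 CPM (−0.91 ± 0.11; adjusted p = 2.2e-04, edgeR). LIPT2, which moves octanoyl to GCSH, was low in both groups, at 1.98 ± 0.127 CPM in C and 1.54 ± 0.297 in D, and it did not pass (−0.36 ± 0.21; adjusted p = 0.18, edgeR).

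The iron-sulfur cluster genes, on which LIAS and FDX1 depend for their cofactors, went both ways. Of 17, 7 were higher and 4 lower (median 0.26), against 26.8% and 27.7% of all tested genes. HSPA9, the mitochondrial HSP70 that serves cluster transfer and protein import, rose from 409 ± 22.0 to 1330 ± 57.4 CPM (1.70 ± 0.10; adjusted p = 1.2e-05, edgeR). NFS1, the cysteine desulfurase, fell from 102 ± 3.28 to 63.3 ± 4.75 CPM (−0.69 ± 0.10; adjusted p = 6.4e-04, edgeR). FDX2, the ferredoxin of cluster assembly and the paralog of FDX1, had 12.5, 14.1 and 13.0 CPM in C and 23.6, 20.5 and 30.3 in D (0.91 ± 0.16; adjusted p = 0.0016, edgeR). FDXR, the reductase that gives electrons to both ferredoxins, had 14.7, 15.9 and 13.9 CPM in C and 9.76, 7.91 and 11.3 in D (−0.62 ± 0.15; adjusted p = 0.0078, edgeR). FDX2 and FDXR were thus called in opposite directions, and FDX1 was not called. Whether their changes differ from that of FDX1 was not tested.

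**Figure D5:**
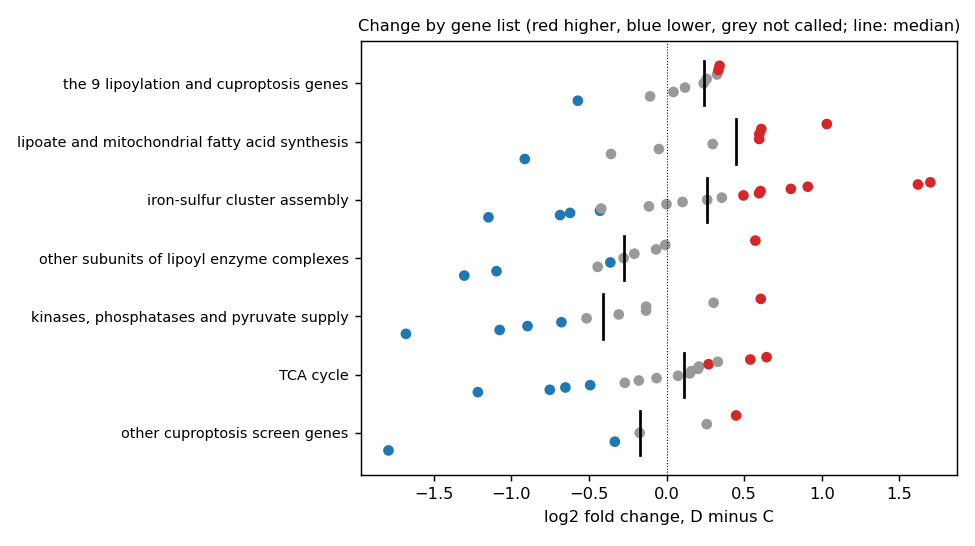
Log2 fold change of D minus C (horizontal axis) of each tested gene of the 9 lipoylation genes and of 6 lists of related genes, coloured by call, with a black line at each list median. The 9 genes lie between −0.57 and 0.34, while single genes of the related lists reach −1.79 and 1.70.

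Regulators of pyruvate dehydrogenase included 2 kinases that fell by at least 2-fold, PDK3 and PDK2. Of 10 tested kinases, phosphatases and pyruvate carriers, 1 was higher and 4 were lower (median −0.41), against 26.8% and 27.7% of tested genes. PDK3, a kinase that inactivates PDHA1 by phosphorylation, had 19.1, 16.9 and 18.0 CPM in C and 5.87, 5.52 and 5.45 in D (−1.68 ± 0.12; adjusted p = 2.0e-05, edgeR). PDK2 and PDK1, named after their values were seen, were at −1.08 ± 0.11 (adjusted p = 9.8e-05, edgeR) and 0.30 ± 0.14 (adjusted p = 0.099, edgeR). PDK1 was called higher without D replicate 3 (0.41). MPC1, a subunit of the mitochondrial pyruvate carrier, rose from 12.7 ± 1.69 to 19.3 ± 4.08 CPM (0.61 ± 0.18; adjusted p = 0.018, edgeR), a call lost without C replicate 2 (0.55), C replicate 3 (0.55) or D replicate 1 (0.61).

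Of 16 TCA cycle genes, 3 were higher and 4 lower (median 0.11), against 26.8% and 27.7% of all tested genes. Without D replicate 2 the number of TCA cycle genes higher was 7. In that fit 3888 of all 12808 tested genes were higher, against 3393 of 12682 with all libraries. IDH2, the NADP-dependent isocitrate dehydrogenase, fell from 107 ± 3.67 to 46.3 ± 6.17 CPM (−1.22 ± 0.12; adjusted p = 9.4e-05, edgeR).

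Among 5 tested copper transporters and other genes linked to cuproptosis, 1 was higher and 2 were lower (median −0.17). The shares of all tested genes were 26.8% and 27.7%. SLC31A1, the copper importer of the plasma membrane, rose from 101 ± 8.05 to 138 ± 10.8 CPM (0.45 ± 0.11; adjusted p = 0.0079, edgeR), and with library size only it was not called (0.30, adjusted p = 0.056). ATP7B, a copper-exporting ATPase, fell from 12.7 ± 1.41 to 3.63 ± 1.09 CPM (−1.79 ± 0.21; adjusted p = 2.0e-04, edgeR). Over all 65 tested genes of the 6 lists, 17 were higher and 18 lower with a median of −0.06, near the shares of all tested genes.

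The genes most like DLST and GCSH were sought among 9552 tested genes whose mean log2 CPM was 3 or more. Likeness was the Euclidean distance between log2 CPM profiles over the 6 libraries, each centred on its mean. ZNF496, PLK2, SIN3B and ATP13A1 lay nearest to DLST, at distances of 0.058 to 0.087, and ERG28, MPLKIP, DMKN and GEMIN6 nearest to GCSH, at 0.109 to 0.131. This is a description of 6 libraries, and none of these 8 genes is on the lists above.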

How the data were processed

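For each of the 6 libraries the authors deposited whole-number counts per gene symbol, without normalization per the values, and FPKM values. For 17144 of 17144 genes, the deposited FPKM was the count over the library total and over 1 fixed gene length (relative tolerance 0.001), and these lengths were used. RNA was column-purified and libraries were made with a SMARTER mRNA kit, per the labels' protocols. For aligner, counter and strand setting, nothing is given in the sources used here. The builds GRCm38 and mm10, per the submitters' processing notes, and the labelled organism are those of the mouse, but the symbols follow human naming, so no coordinates are given. Separate cultures are not mentioned in any label, so each p-value reflects the spread among these libraries alone, which may be technical. Within each group, every pair of libraries differed by more than sampling noise (chi-square per degree of freedom 6.48 to 95.97).

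The test of counts used edgeR 4.0.16 in R 4.3.3: filterByExpr (12682 genes kept, 4462 left out), TMM factors, quasi-likelihood F test with the group as the only term, 2-sided, Benjamini-Hochberg adjustment. The SE is the log2 fold change divided by the square root of F, and 95% intervals use the moderated degrees of freedom. Alternatives were DESeq2 1.42.0, limma-voom, limma-trend (limma 3.58.1) on log2 of FPKM with 1 or 0.1 added, filtered at FPKM above 1 in 3 libraries or, with 1 added, unfiltered, RLE, upper quartile or no factors, no filter or at least 1 CPM in 3 libraries, an adjusted p under 0.01, a replicate block, each library left out, the 20 most abundant genes left out, and a lowess correction for gene length (span 0.4). Scripts were tested on simulated data. The floor of 3 counts covers counting error only.

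The 9 genes and all lists were chosen with earlier results of these data known. Named genes were the 9, the called gene with the lowest p per direction in each list, subunits or partners of the same complex, and the 4 nearest profiles of the member with the lowest p per direction. Some genes that this rule or the marker check would name are not reported here.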

Additional observations from a re-analysis of the deposited data

How the results depend on the processing

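Calls among the 9 genes changed under many of the 20 alternatives. The total of 6902 called genes stayed within 1.5 times under all of them, but its split by direction moved. With library size only, 2586 genes were higher and 4449 lower, against 3393 and 3509. Whether the 9 genes were less stable than other genes was not tested. The number of the 9 called higher was 2, and 0 with library size only, an adjusted p under 0.01, the replicate block and the 3 fits on log2 FPKM. The number called lower was 1, and 0 with an adjusted p under 0.01 or the replicate block, and 2 with library size only and the 3 fits on log2 FPKM, which also scale by library size. With 1 library left out, 0 to 3 were higher and 0 to 1 lower. Deviations from the group mean did not go together in same-numbered libraries: they correlated at 0.008, −0.397 and −0.365. C replicate 2 correlated best with D replicate 3 (0.423), and C replicate 3 with D replicate 2 (0.345). The deviations of a group cancel out within each gene, so these correlations depend on each other. They cannot decide whether the libraries were paired. With the replicate block the log2 fold changes of DLAT, DLST and GCSH were 0.34, 0.34 and −0.58, none of them called, PDHX was not called either (−0.36, adjusted p = 0.078, edgeR), and 15 related genes were called higher and 15 lower. Related genes called higher numbered 17, and 11 with log2(FPKM + 0.1) or unfiltered log2(FPKM + 1). Small list counts also moved: 1 lower gene of lipoate and mitochondrial fatty acid synthesis became 2 without a filter on counts and 3 with unfiltered log2(FPKM + 1), 1 higher regulator of pyruvate dehydrogenase or pyruvate supply became 0 to 2, and 1 higher and 2 lower genes linked to copper became 0 to 2 and 1 to 3. Of all genes 3393 were higher, and 2213 and 2209 with filtered log2(FPKM + 1) and log2(FPKM + 0.1).

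Among the named genes and pairs, direction changed only for values that were not called. The log2 fold change of DLD was −0.112 with library size only, −0.108 with log2(FPKM + 1), filtered or not, −0.116 with log2(FPKM + 0.1), and −0.0613 to 0.122 with 1 library left out. That of PDHB was −0.0368 with library size only, −0.0403 with log2(FPKM + 1), filtered or not, −0.0413 with log2(FPKM + 0.1) and −0.0328 after removal of length trends. That of GLDC was 0.0212 with DESeq2, 0.0211 with RLE factors, 0.0308 after removal of length trends, and −0.0878 to 0.138 with 1 library left out. Leaving out 1 library gave −0.331 to 0.135 for MRPS36 and −0.229 to 0.00326 for PDP1, a pyruvate dehydrogenase phosphatase. It gave −0.0587 to 0.0484 for DLST relative to DLAT and −0.167 to 0.0430 for LIPT1 relative to LIAS. Of all calls, 49.2% were higher, against 36.8% with library size only. The cause was not tested.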
